A study of Homo sapiens with 18 samples.

Results

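The replication-dependent histone genes were followed through 9 Ribo-seq and 9 poly(A) mRNA-seq libraries of IMR90, a strain of human fetal lung fibroblasts. Members were the symbols of the HIST1 to HIST4 clusters with at least 20 ribosome footprints in their coding sequence (CDS) over the 9 Ribo-seq libraries. The rule kept 66 of 74 such symbols and of 38716 gene symbols in the tables, namely 5 genes for linker histone H1, 16 for H2A, 17 for H2B, 14 for H3 and 14 for H4. It used summed reads only and no difference between groups. Each member had at least 25.8 footprints in the young libraries together, whereas 18 members had fewer than 20 in old and 60 in ICM. The rule can thus favour genes high in young, which bears on the counts of lower footprints below. Just inside the limit were HIST1H2BN with 34.8 footprints and HIST2H3D with 39.5, and just outside were HIST2H3PS2 with 18.7 and HIST1H1T with 3.83.

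Conditions, each with 3 replicates, were low-passage proliferating cells (young), high-passage cells in replicative senescence (old) and cells given inflachromene (ICM), a compound directed at the nuclear proteins HMGB1 and HMGB2. By the study's methods, cells were lysed with cycloheximide and each lysate served both Ribo-seq, which sequences the stretches of RNA covered by ribosomes, and mRNA-seq of RNA selected by its poly(A) tail. All libraries come from the same cell strain, and in bulk lysates fewer cells that make a histone and less histone RNA per cell cannot be told apart. Levels are given as counts per 1000000 reads (CPM), scaled by TMM, a factor computed over all genes, and differences as log2 ratios ± SE. A difference was called at a Benjamini-Hochberg adjusted p below 0.05 in edgeR's quasi-likelihood test over all genes. Each SE was derived from that test, as the absolute log2 ratio divided by the square root of the F statistic.

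Replication-dependent histones package newly copied DNA and are made in S phase, when their genes are transcribed together. Their main mRNAs end in a short conserved stem-loop instead of a poly(A) tail. The stem-loop is bound by the protein SLBP, which takes part in cutting the mRNA end, in its translation and in its decay when replication stops. Some of these genes also give transcripts that run on to a later poly(A) signal and carry a tail, and such forms are known from cells that have left the cell cycle. Ribo-seq counts footprints on either form, whereas the mRNA-seq used here counts mainly tailed RNA, so that the 2 assays do not look at the same pool of histone mRNA.

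The stem-loop was searched as a 16-base pattern, GG, 2 free bases, CTTTT, 1 free base, AG, 2 free bases and CC, on the sense strand within 150 bases after the stop codon, in the GRCh37 sequence. Of the 63 members with an annotated transcript (GENCODE, lifted to GRCh37), 60 or 95.2% had it, compared with 2 of 19612 other protein-coding genes (0.0102%), which were H2AX and TIPARP. It began 22 to 67 bases after the stop codon, with a median of 35.5. All 63 had a single exon, 48 on chromosome 6, 14 on chromosome 1 and 1 on chromosome 12. The members HIST1H2BF, HIST1H2BG and HIST1H4F were not matched to an annotated gene, and HIST1H2BI, HIST1H3E and HIST1H4L had no match to the motif in this window.

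These copies of the stem-loop are shown for members on which the results below turn, 5′ to 3′ on the gene's own strand, with the stem-loop in capitals and 5 flanking bases on either side. They lie in the annotated 3′ untranslated region (UTR) or across its end, at chr6:26055967-26055992 (minus strand) for HIST1H1C, chr6:26124892-26124917 (plus) for HIST1H2AC, chr6:27114140-27114165 (minus) for HIST1H2BK, chr1:149857733-149857758 (minus) for HIST2H2BE, chr1:149858936-149858961 (plus) for HIST2H2AC, chr6:26197012-26197037 (minus) for HIST1H3D and chr6:26285354-26285379 (minus) for HIST1H4H.
HIST1H1C: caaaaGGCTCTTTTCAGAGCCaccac
HIST1H2AC: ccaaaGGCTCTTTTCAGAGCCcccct
HIST1H2BK: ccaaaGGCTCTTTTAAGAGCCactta
HIST2H2BE: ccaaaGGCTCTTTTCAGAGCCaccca
HIST2H2AC: ccaaaGGCTCTTTTTAGAGCCaccca
HIST1H3D: ccaaaGGCTCTTTTCAGAGCCaacca
HIST1H4H: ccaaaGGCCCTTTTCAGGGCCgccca
There were 7 distinct stem-loops among the members, and the commonest, as in HIST1H1C, occurred in 37 of them. The copies of HIST1H2BK, HIST2H2AC and HIST1H4H differ from it in the capital letters.

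Depth differed widely between the Ribo-seq libraries, from 46239 to 1718521 CDS footprints, whereas mRNA-seq libraries held 7902427 to 14144455 reads on coding transcripts. The young replicate 1 and old replicate 2 Ribo-seq libraries had 34.4% and 15.0% of their reads in coding sequences, against 54.7% to 88.8% in the others, and ICM replicate 3 was the shallowest. All 11 lung fibroblast markers had a mean above 1 CPM in mRNA-seq, as had 1 of 6 epithelial, 1 of 4 endothelial, 1 of 4 leukocyte and all 3 smooth muscle markers. The summed fibroblast markers were lower in ICM, at 14524 to 15117 CPM against 31879 to 39245 CPM in the young and old libraries. The other sums moved as well between young and ICM, from 268 to 285 CPM down to 28.0 to 33.4 CPM for epithelial and from 281 to 316 CPM down to 69.5 to 76.5 CPM for smooth muscle markers, and from 19.5 to 21.7 CPM up to at least 53.9 CPM for leukocyte and from 0.600 to 0.698 CPM up to 3.58 to 4.52 CPM for endothelial ones. Their part in the values below was not tested. Footprints on a member in the 3 ICM libraries together had a median of 4.58 reads, and 60 of 66 members had fewer than 20, so that single members are imprecise in ICM and summed classes less so. The copies are also alike: 18 members had more than 50% of their 30-base CDS windows in a transcript of another gene, and 4 pairs (HIST1H4J with HIST1H4K, HIST2H2AA3 with HIST2H2AA4, HIST2H3A with HIST2H3C, HIST2H4A with HIST2H4B) had identical values throughout. Reads matching several copies had been divided among them, which left 82.2% of the members' non-zero footprint values fractional, beyond 0.01 of a whole number, compared with 16.0% for other genes.

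Footprints on histone coding sequences were several-fold fewer in both non-proliferating conditions. The 66 members together took 0.922%, 0.866% and 0.856% of CDS footprints in the young libraries, 0.173%, 0.212% and 0.139% in the old ones, and 0.137%, 0.184% and 0.393% in the ICM ones. No old or ICM library came near a young one. Their summed level was 9594 ± 307 CPM in young (mean ± SD, n = 3), 2020 ± 340 CPM in old and 2548 ± 1402 CPM in ICM, which is 4.75 and 3.76 times less. ICM replicate 3 stood apart, at 4144 CPM against 1516 and 1985 CPM in the other ICM libraries, and it gave the highest ICM value in 43 of 66 members. Class sums with and without it are given below.

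Every histone class shared in this. H1 footprints summed to 2783, 2483 and 2443 CPM in young, 534, 704 and 528 CPM in old, and 764, 887 and 1393 CPM in ICM. H3 footprints, in contrast, went from 2129, 2125 and 2000 CPM to 342, 463 and 260 CPM in old and to 90.3, 236 and 891 CPM in ICM, the last being ICM replicate 3. In terms of class means, young exceeded old 4.36 times for H1, 4.51 times for H2A, 6.03 times for H2B, 5.87 times for H3 and 4.30 times for H4. Young exceeded ICM 2.53 times for H1, 3.48 times for H2A, 4.76 times for H2B, 5.14 times for H3 and 5.22 times for H4. ICM replicate 3 decided much of the size of these ICM values: without it the log2 difference from young was −1.64 for H1, −2.28 for H2A, −3.30 for H2B, −3.67 for H3 and −2.89 for H4, in place of −1.34, −1.80, −2.25, −2.36 and −2.38. For all 5 classes the 3 young libraries lay above the 6 others, while the old and ICM ranges overlapped for each class but H1.

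**Figure D1:**
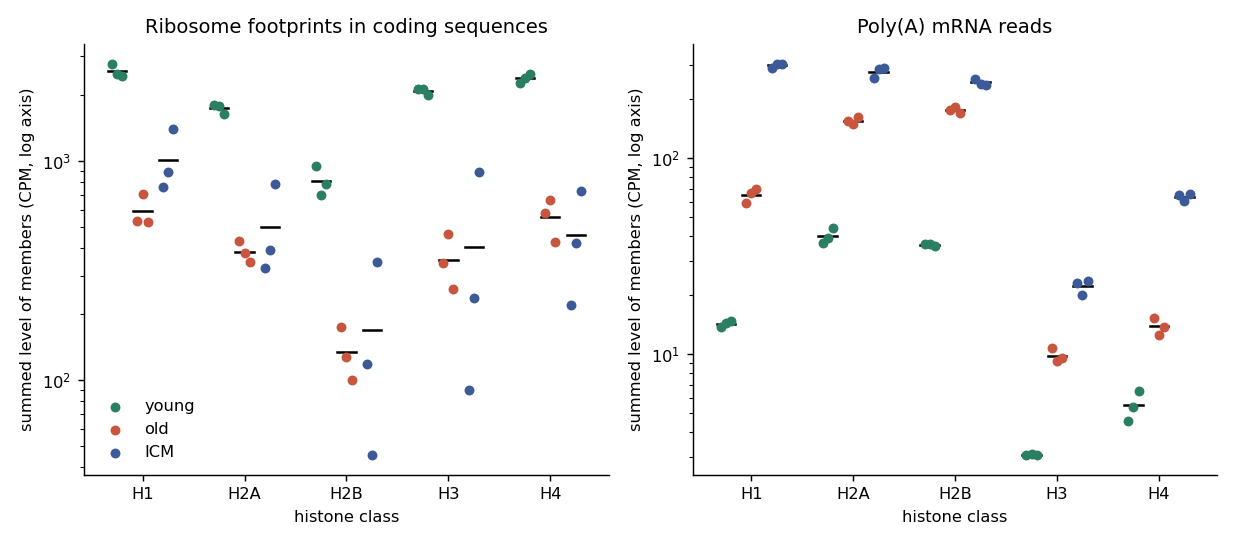
Summed level of the members of each histone class in each library, in CPM on a log axis, for Ribo-seq (left) and poly(A) mRNA-seq (right). Points are libraries, colours are conditions and black bars are means of 3. Footprints were lower in old and ICM than in young for all 5 classes, and tailed mRNA was higher.

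Per kb of coding sequence, core histone footprints were unevenly divided between classes. In young cells the level was 7737 ± 365 CPM per kb for H4, 5110 ± 179 for H3, 4471 ± 240 for H2A, 3910 ± 284 for H1 and 2140 ± 338 for H2B. H1 made up 16.7% ± 0.83 of the per-kb total in young, 18.5% ± 2.19 in old and 29.8% ± 7.11 in ICM. The 3 ICM values were 36.4%, 30.8% and 22.3%, all above the highest value elsewhere, 20.4%.

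Single members followed their classes. With no filter on low counts, so that all 66 were tested, footprints were lower in old than in young for 64 members and in ICM than in young for 57, and higher for 0. Over all 13714 genes of this fit, 7.29% were called lower and 7.61% higher in old, and 6.8% lower and 3.97% higher in ICM. That fit kept any gene with a read, so these shares include genes sparser than the members. In the filtered fit, 17% of 4643 genes were called lower in old and 12.9% in ICM. The median log2 difference of the members was −2.47 in old and −3.18 in ICM, beside −0.01 and −0.41 over all genes in this unfiltered fit. At an unadjusted p below 0.05, 66 and 63 members were lower. Without reference to a model, all 3 old libraries lay below all 3 young ones for 63 of 66 members, against 14.4% of the genes with at least 20 footprints, and all ICM libraries did for 51, against 15%. The 2 comparisons share the young libraries, and the rule that chose the members summed these same footprints. Members not called in old were HIST1H2BK and HIST1H2BN. Those not called in ICM were HIST1H1C, HIST1H2AC, HIST2H2AB, HIST2H2AC, HIST2H3D and 4 H2B genes, HIST1H2BC, HIST1H2BE, HIST1H2BH and HIST1H2BN. The last, HIST1H2BN, had 0 footprints in each ICM library.

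**Figure D2:**
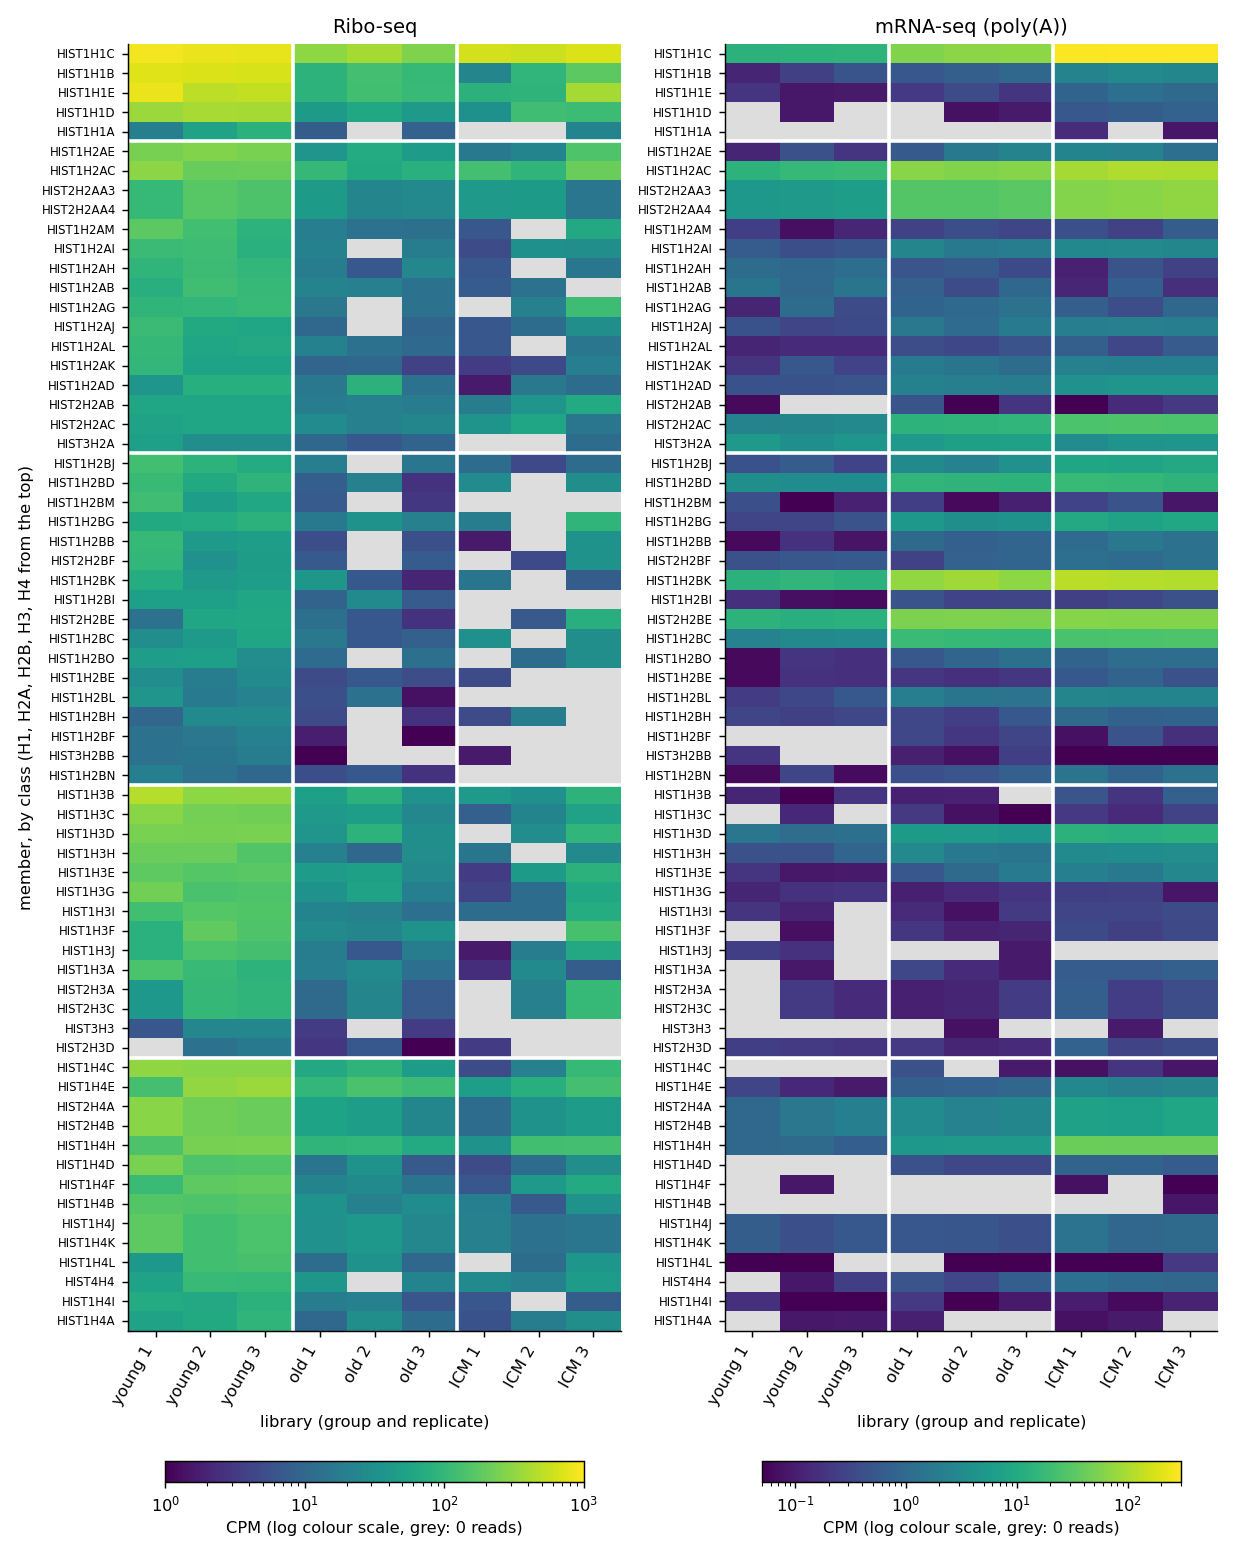
Level of each of the 66 members (rows, grouped by class and ordered by their young footprint level) in each library (columns), as CPM on a log colour scale, for Ribo-seq (left) and poly(A) mRNA-seq (right). Grey marks 0 reads. Footprints dim from young to old and ICM in nearly all rows, while tailed mRNA brightens in a subset, led in ICM by HIST1H1C.

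The standard filter, which asks for enough reads in at least 1 group, kept 48 members in Ribo-seq, and the values of single members given from here on come from that fit unless stated. Because the members that pass are those with many footprints in young cells, their number carries no weight of its own.

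Among the H1 genes, which encode the linker histones that bind the DNA between nucleosomes, HIST1H1B fell from 710, 695 and 654 CPM in young to 86.0, 127 and 104 CPM in old (log2 difference −2.85 ± 0.24, adjusted p = 1.83e-11) and to 23.0, 93.2 and 175 CPM in ICM (−3.37 ± 0.35, adjusted p = 2.16e-09), a value that was −2.49 without ICM replicate 1 and further from 0 without ICM replicate 3. HIST1H1E and HIST1H1D were lower in both too, by −2.54 ± 0.26 and −3.18 ± 0.25 in old and by −2.09 ± 0.33 and −2.61 ± 0.34 in ICM, where HIST1H1E was at −2.81 without ICM replicate 3. HIST1H1C departed from them. Its footprints read 888, 819 and 778 CPM in young, 310, 389 and 266 CPM in old, and 624, 584 and 689 CPM in ICM. The old libraries were lower than the young ones (−1.44 ± 0.18, adjusted p = 1.54e-07), while the ICM libraries lay below young with no overlap but did not pass the test (−0.38 ± 0.19, adjusted p = 0.155). When young replicate 1, old replicate 2 and ICM replicate 3 were left out, that difference was called (−0.48, adjusted p = 0.0448).

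HIST1H1C was also the 1 member of 66 with a called difference in footprints between ICM and old, where it was higher in ICM by 1.06 ± 0.21 (adjusted p = 0.000282). With no filter, when this member was again the 1 called (0.86 ± 0.27), 2.01% of all genes were higher and 3.84% lower in that comparison, and 6 members had an unadjusted p below 0.05. HIST1H1C provided 31.8% to 33.0% of H1 footprints in the young libraries, 50.4% to 58.1% in the old ones, and 81.7%, 65.9% and 49.5% in the ICM ones, the lowest again being ICM replicate 3. The share of HIST1H1B moved the other way, from 26.8% ± 1.24 in young to 17.9% ± 1.75 in old and 8.70% ± 5.03 in ICM.

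**Figure D3:**
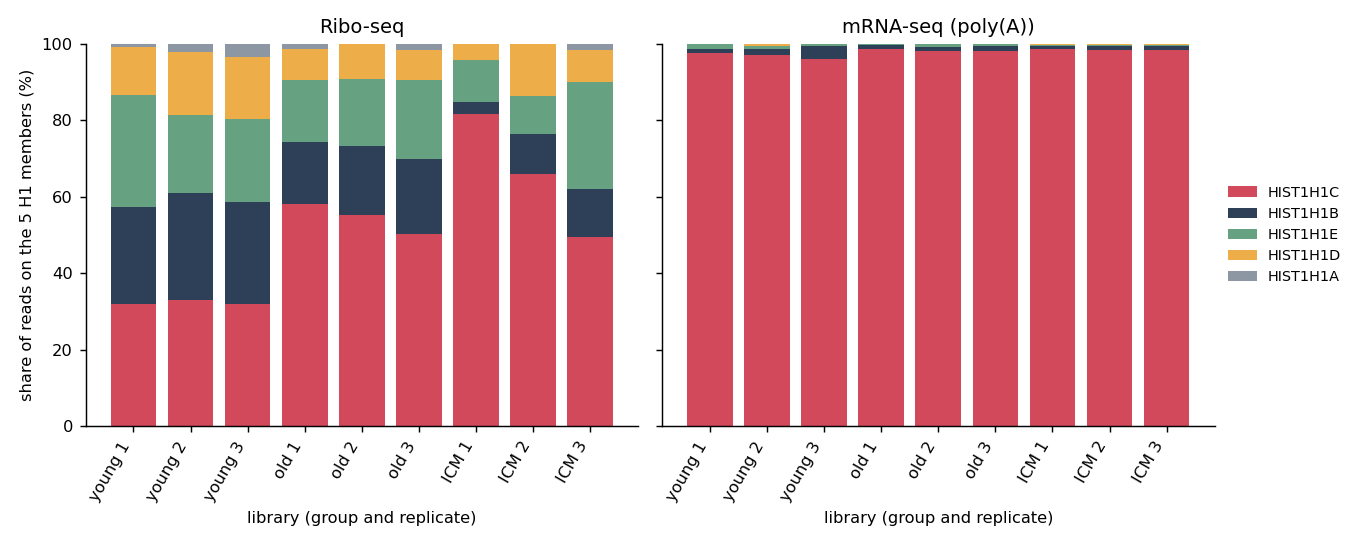
Share of each of the 5 H1 genes (stacked bars, percent) in the reads on H1 members of each library, for Ribo-seq (left) and poly(A) mRNA-seq (right). HIST1H1C takes about 32% of H1 footprints in the young libraries and 49.5% or more in the others, but at least 96.1% of tailed H1 reads in each library.

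H2A and H2B pair with each other in the nucleosome. HIST1H2AE, the H2A gene with the most footprints in young cells, fell from 244, 269 and 247 CPM to 36.4, 70.4 and 44.8 CPM in old (−2.64 ± 0.27) and to 16.4, 22.7 and 148 CPM in ICM (−2.85 ± 0.44, and −3.87 without ICM replicate 3 or −1.99 without ICM replicate 1). HIST1H2AD was lower in ICM (−4.47 ± 1.00), from 36.3, 77.3 and 76.9 CPM to 1.64, 15.9 and 11.4 CPM, which stand for 0.333, 1.17 and 0.500 reads. Its size is therefore poorly set, and it ran from −8.41 without ICM replicate 2 to −3.21 without ICM replicate 1. In old it read 15.9, 83.8 and 13.0 CPM, so that old replicate 2 exceeded all young libraries, and its call there was lost without young replicate 2 or 3 or old replicate 1, with DESeq2 and with a replicate block. HIST2H2AA3 was lower in both by about the same amount (−2.03 ± 0.26 in old and −2.02 ± 0.43 in ICM). HIST1H2AC and HIST2H2AC were lower in old (−1.22 ± 0.22, adjusted p = 4.16e-05, and −1.10 ± 0.35, adjusted p = 0.0132) but were not called in ICM, where their footprints read 127, 90.9 and 206 CPM and 36.1, 59.1 and 15.2 CPM. Without ICM replicate 3, HIST1H2AC was called in ICM as well (−0.93, adjusted p = 0.0228).

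H2B genes had the fewest footprints per member. HIST1H2BJ fell from 122, 86.8 and 69.9 CPM to 19.4, 0 and 15.1 CPM in old (−2.19 ± 0.38) and to 11.5, 4.55 and 11.4 CPM in ICM (−3.62 ± 0.81), the ICM values standing for 2.33, 0.333 and 0.500 reads, and was at −8.39 without ICM replicate 1. HIST1H2BD had the largest difference of the 48 tested members in old (−3.59 ± 0.46, and −4.37 without old replicate 1), from 109, 66.6 and 88.9 CPM to 7.82, 20.1 and 2.74 CPM. In ICM it read 27.9, 0 and 30.4 CPM, and that call was lost without young replicate 2 and with DESeq2. HIST1H2BG was lower in both comparisons (−2.06 ± 0.39 in old and −1.60 ± 0.60 in ICM), but its ICM replicate 3 value of 91.3 CPM exceeded all young ones (−2.50 without it) and its ICM call was lost when young replicate 2, old replicate 1 or 3, or ICM replicate 1 or 2 was left out. Its call in old was lost without young replicate 2 or old replicate 1, and both calls were lost with DESeq2 and with a replicate block. HIST1H2BK, with 72.6, 41.8 and 47.5 CPM in young, read 39.2, 6.71 and 2.05 CPM in old and 14.8, 0 and 7.61 CPM in ICM.

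H3 and H4 form the core of the nucleosome. With no filter, 14 of 14 H3 genes were lower in old and 13 of 14 in ICM, as were 14 of 14 H4 genes in each. HIST1H3B, with the most H3 footprints, went from 459, 305 and 315 CPM in young to 48.8, 83.8 and 33.5 CPM in old and 41.1, 31.8 and 87.5 CPM in ICM. HIST1H3C and HIST1H3D were lower by −2.67 ± 0.26 and −2.75 ± 0.29 in old and by −3.61 ± 0.48 and −3.66 ± 0.53 in ICM, where HIST1H3D ranged from −5.10 without ICM replicate 3 to −2.35 without ICM replicate 1 and HIST1H3C was at −2.86 without the latter. For H4, whose many gene copies encode the same protein, HIST1H4C went from 317, 290 and 289 CPM to 65.4, 90.5 and 45.2 CPM in old and 4.93, 20.5 and 103 CPM in ICM. HIST1H4D had the second largest fall of the 48 tested members in old (−3.53 ± 0.34). HIST1H4I was lower in ICM (−4.52 ± 0.95) from 1.33, 0 and 0.333 reads, so that its size is poorly set, at −8.38 without ICM replicate 1. Of all members, 6 had 0 footprints in all ICM libraries, and none of these was tested after filtering. They were HIST1H2BF, HIST1H2BI, HIST1H2BL, HIST1H2BM, HIST1H2BN and HIST3H3. HIST1H4E was lower by −1.61 ± 0.22 in old and −2.21 ± 0.35 in ICM. HIST1H4H, at 145, 245 and 247 CPM in young, read 91.3, 97.2 and 67.7 CPM in old and 34.5, 123 and 126 CPM in ICM, and its call in ICM (−1.74 ± 0.37) was lost without ICM replicate 1 (adjusted p = 0.101).

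Tailed histone mRNA moved in the opposite direction. The members took 0.00966%, 0.00999% and 0.0106% of mRNA-seq reads in young, 0.0394%, 0.0401% and 0.0407% in old and 0.0922%, 0.0929% and 0.0962% in ICM. The 3 groups did not overlap, and the order from young through old to ICM held for each of the 5 classes. Summed H1 reads rose from 14.3 ± 0.51 CPM in young to 65.0 ± 5.29 CPM in old and 299 ± 8.08 CPM in ICM, 20.9 times the young level. The ICM level was 6.91 times the young one for H2A, 6.74 times for H2B, 7.25 times for H3 and 11.6 times for H4, and the old level was 3.88, 4.86, 3.20 and 2.53 times the young one. The H3 values depend on the members taken: with HIST2H3PS2, the H3 gene just outside the rule, added, the log2 difference of the sum was 1.14 in ICM and 0.079 in old, in place of 2.86 and 1.68. With no filter, 45 of 66 members were higher and 2 lower in ICM than in young, against 28% of all genes called higher and 28.6% lower. In old, 33 were higher and 2 lower, against 26.2% and 26.4%. In ICM against old, 30 were higher and 2 lower, against 24.3% and 26.5%.

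Few genes carried most of the tailed reads. The 7 members with the highest level summed over the 9 libraries, HIST1H1C, HIST1H2BK, HIST1H2AC, HIST2H2BE, the identical pair HIST2H2AA3 and HIST2H2AA4, and HIST1H4H, held 69.8% ± 0.59 of member reads in young, 76.7% ± 1.19 in old and 81.9% ± 0.48 in ICM. Since ICM levels weigh most in that choice, part of the higher share in ICM comes from it: HIST1H4H, at a mean of 0.867 CPM in young, was below HIST3H2A, HIST1H2BD and HIST1H2BC there, at 4.66, 3.57 and 2.94 CPM. In Ribo-seq the same 7 took 17.3% ± 0.83 of member footprints in young, 28.5% ± 2.39 in old, and 58.2%, 44.9% and 27.4% in the ICM libraries. In mRNA-seq, 50 of 66 members had fewer than 20 reads in the 3 young libraries together.

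HIST1H1C had the highest tailed mRNA level of the members in ICM, though HIST1H2AC had in young and HIST1H2BK in old. It was at 13.5 to 14.2 CPM in young, 58.5 to 68.4 CPM in old and 286 to 299.8 CPM in ICM. It was higher in old by 2.20 ± 0.08 (adjusted p = 1.18e-15), in ICM by 4.40 ± 0.08 (adjusted p = 1.21e-21) and in ICM over old by 2.20 ± 0.07. HIST1H4H had the largest difference of the 33 members tested after filtering between ICM and young (5.52 ± 0.14, adjusted p = 4.29e-19), from 0.931, 1.00 and 0.667 CPM to 42.5, 41.0 and 41.7 CPM, with 5.11, 5.30 and 5.52 CPM in old. Its difference between ICM and old (2.96 ± 0.10) was also the largest. No library of 1 group overlapped another group for either gene.

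HIST1H2BK rose from 13.5, 15.3 and 13.4 CPM to 74.2, 85.6 and 69.3 CPM in old and 123, 114 and 108 CPM in ICM. HIST1H2AC rose from 13.8, 16.9 and 18.8 CPM to 64.2, 58.4 and 62.4 CPM and 93.0, 108 and 105 CPM. HIST2H2BE, whose annotated 3′ UTR is 1801 bases long, was higher in old by 2.10 ± 0.08 and in ICM by 2.24 ± 0.08, and ICM did not differ from old beyond the threshold (0.14 ± 0.07, adjusted p = 0.0762). HIST1H2BG had the largest increase of those 33 in old (3.51 ± 0.32), from 0.310, 0.305 and 0.461 CPM to 5.21, 3.78 and 4.17 CPM, followed by HIST1H3E (3.02 ± 0.62) with 0.538, 1.00 and 1.85 CPM in old. In the GENCODE annotation, 13 members had a transcript with a 3′ UTR longer than 200 bases. HIST1H2BK was not among them, at 57 bases, although 51.4% of its mRNA-seq reads were counted in a 3′ UTR.

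A few genes departed from this in part. HIST3H2A, an H2A gene of the small HIST3 cluster, read 5.27, 3.81 and 4.89 CPM in young, 5.38, 6.98 and 7.15 CPM in old and 3.29, 4.49 and 4.59 CPM in ICM. It was higher in old than in young (0.52 ± 0.17, adjusted p = 0.0108), a call lost without young replicate 2 (adjusted p = 0.0858). It was lower in ICM than in old (−0.69 ± 0.17, adjusted p = 0.00119), and its ICM and young libraries did not differ beyond the threshold (−0.17 ± 0.19). With no filter HIST3H2BB was the other member lower in ICM than in old (−3.83 ± 1.68). Its old libraries held 1, 1 and 2.67 reads and each ICM library 0.333, so that its size is poorly set. Also with no filter, HIST1H2AB and HIST1H2AH were the 2 members lower than in young, by −0.94 ± 0.40 and −1.01 ± 0.44 in old and by −2.01 ± 0.47 and −1.85 ± 0.49 in ICM. Both were rare, with means of 1.27 and 1.04 CPM in young.

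**Figure D4:**
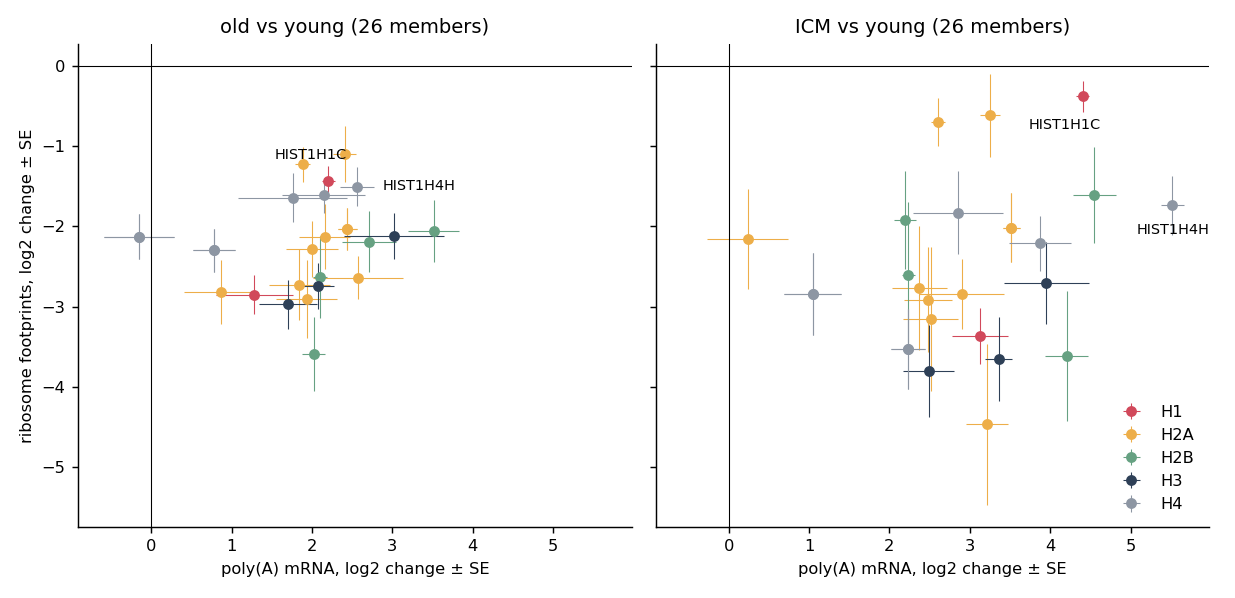
Log2 difference from young in ribosome footprints (vertical) against that in poly(A) mRNA (horizontal) for the 26 members tested in both assays, in old (left) and ICM (right). Points are members coloured by class, bars are SE derived from the F statistic of the edgeR test. Footprint differences are below 0 for all 26, and tailed mRNA differences are above 0 for 24 in old and 26 in ICM. These members passed the filter on low counts in both assays. It can favour members high in young for footprints and high in old or ICM for tailed mRNA, so these counts carry no weight of their own.

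The 2 assays were then set against each other as footprints per tailed read, tested in a model over both assays with the lysate as a block. Since stem-loop mRNA without a tail gives footprints but few mRNA-seq reads, this ratio is not translation per mRNA molecule for these genes. In young, H1 gave 180 CPM of footprints per CPM of tailed reads, H2A 43.8, H2B 22.3, H3 677 and H4 442. In old these were 9.08, 2.49, 0.757, 36.3 and 40.5, and in ICM 3.38, 1.78, 0.702, 17.8 and 7.17. The ICM means of H3 and H2B rest largely on ICM replicate 3, the 3 libraries having 3.88, 11.8 and 37.7 for H3 and 0.463, 0.189 and 1.45 for H2B. With no filter, the ratio was lower in old than in young for 35 of 66 members and in ICM than in young for 49, against 0.338% and 0.772% of all genes, and it was higher for 0, against 0.154% and 0.206%. In old 55 members had an unadjusted p below 0.05, and in ICM 59. Those shares of all genes include sparse ones. The filtered fit called 1.47% of genes in old and 2.08% in ICM, in either direction.

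After filtering on low counts in both assays, which kept 26 members, the ratio was lower in ICM for HIST1H2BJ (−8.01 ± 0.74, adjusted p = 7.07e-10) and HIST1H2AD (−7.67 ± 0.92), both with the few ICM footprints given above. These sizes are poorly set, at −15.9 for HIST1H2BJ without ICM replicate 1 and −14.6 for HIST1H2AD without ICM replicate 2. In old it was lower for HIST1H2BD (−5.68 ± 0.48, adjusted p = 1.62e-10, and −6.40 without old replicate 1) and HIST1H2BG (−5.50 ± 0.58). Between ICM and old, 6 of 66 members were lower in ICM and 0 higher with no filter, against 0.213% and 0.0955% of all genes. They were HIST1H1B, HIST1H1C, HIST1H4E, HIST1H4H and the identical pair HIST2H4A and HIST2H4B. With the filter, HIST1H4H (−3.24 ± 0.46, adjusted p = 7.28e-05, and −2.48 without ICM replicate 1), HIST1H1C (−1.23 ± 0.21, adjusted p = 0.00156) and HIST1H4E (−2.45 ± 0.57, adjusted p = 0.0475) were called. Without old replicate 1 none of these 3 passed (adjusted p of 0.0868 for HIST1H4H and 0.259 for HIST1H1C), nor did any with DESeq2 (0.180 and 0.268). The call of HIST1H4E was also lost under another scaling (RLE, or TMM without the histone symbols), with only the ICM and old groups fitted, and without young replicate 2 or 3, old replicate 2 or 3, or ICM replicate 1.

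Where tailed reads fell along the transcript could be followed in 4 members with at least 10 mean reads in the 3′ UTR and in the CDS, namely HIST1H2BK, HIST2H2BE, HIST1H2BD and HIST1H2AC. They held 96.5% to 99.0% of all 3′ UTR reads of members in the 9 libraries. Of the reads on HIST2H2BE, 85.9% ± 2.44 were in the 3′ UTR in young, 86.5% ± 2.20 in old and 83.2% ± 0.99 in ICM. For HIST1H2BK the shares were 52.6% to 54.2% in young, 50.9% to 55.7% in old and 47.1% to 52.3% in ICM. The ratio of 3′ UTR to CDS reads was called for 0 of the 4 in any comparison by edgeR or by DESeq2, with 0, 0 and 1 at an unadjusted p below 0.05 in ICM against young, old against young and ICM against old. Of all genes, 4.57%, 1.88% and 1.81% were called. HIST1H2BD had the largest difference (−0.80 ± 0.39 in ICM against young). HIST1H1C had 0 reads assigned to a 3′ UTR in every library, its reads lying in the CDS and the 5′ UTR. This was not particular to it: HIST1H2BC and HIST2H2AC had 0 as well, beside 1591 and 1505 CDS reads. The part of the authors' annotation in this was not tested.

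Genes around histone supply were counted from lists drawn up beside the members. DNA synthesis genes of S phase fell with the histones in footprints, where 11 of 11 tested in old and 10 of 11 in ICM were lower, with medians of −1.32 and −2.11. In tailed mRNA, where most histone members were higher, 16 of 16 DNA synthesis genes were lower in both old and ICM, with medians of −1.42 and −3.04. Over all genes 36.1% were lower and 34.9% higher in tailed mRNA in ICM, and 33.7% and 32.4% in old, and in footprints 12.9% and 13.7% in ICM and 17% and 19.3% in old. Of the DNA synthesis genes, TK1, a thymidine kinase of S phase, was lower in footprints by −5.53 in ICM and −1.05 in old. Footprints per tailed read were called for 0 of these 11 in either comparison, and over the 7 lists for 1 gene, FIP1L1 of the poly(A) tailing list, lower in ICM, against 2.08% of all genes in ICM and 1.47% in old.

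Of 9 genes for the transcription of histone genes, 6 were lower in tailed mRNA in ICM and 5 lower and 1 higher in old. NPAT, the coactivator of histone genes at the start of S phase, was lower in both (−0.79 ± 0.12 in ICM and −0.64 ± 0.12 in old), as was CCNA2, an S phase cyclin (−3.70 ± 0.10 and −1.26 ± 0.08). Of 19 genes listed for stem-loop end processing, 16 were lower and 1 higher in ICM, with a median of −0.58. In old, 14 were lower and 1 higher, with a median of −0.49. The list also holds factors that are not specific to stem-loop ends, such as SNRPB, CPSF2, CPSF3, CSTF2 and NCBP1. SLBP, which binds the stem-loop, was lower in ICM (−0.58) and not called in old (−0.01). LSM10 was the 1 that was higher (0.46 and 0.31), and LSM11, a subunit of the U7 particle that directs the cut, was lower in ICM (−1.05). Of 14 poly(A) tailing genes, 10 were lower in ICM and 12 in old, and 0 higher, with medians of −0.36 and −0.44.

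Of 18 histone chaperones and assembly factors, 14 were lower and 1 higher in tailed mRNA in ICM, and 16 lower and 2 higher in old. NASP, a chaperone that holds free histones, was lower in footprints by −2.17 in ICM and −1.74 in old. ASF1A was the 1 that was higher in ICM, in mRNA (1.33) and footprints (2.08), whereas its S phase relative ASF1B was lower (−4.97 in mRNA). Of 12 histone genes listed as expressed outside S phase, 10 were lower in both ICM and old. H2AFJ was the 1 that was higher (0.67 and 1.01). The list includes H2AFX, the older symbol of H2AX, which had the stem-loop motif. In footprints 4 of 8 tested were lower in ICM and 5 of 8 in old, with medians of −0.75 and −0.90. H3F3A, which encodes a replacement H3, was lower by −0.79 in ICM and −1.17 in old, and H3F3B, a second gene for it, by −0.89 and −0.66, and H2AFZ by −1.68 and −1.47. Of 9 genes for the translation and decay of stem-loop mRNA, 5 were lower and 2 higher in ICM, and 4 lower in old.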

How the data were processed

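Footprints of ribosomes and poly(A) mRNA of young, old and ICM-treated IMR90 were analysed, 3 replicates each. The study's methods call the replicates independent; p-values measure the spread between these libraries. The authors' service provider assigned reads to transcript regions, and the deposited values are estimated counts per gene symbol and region, not scaled, with reads that match several genes divided. The submitters' processing notes name GRCh37, STAR 2.6.0c and featureCounts; the rule for multiple matches and the annotation release are not given in the sources used here. Counts were rounded, filtered with filterByExpr, scaled by TMM and tested with edgeR 4.0.16 (glmQLFit, R 4.3.3) over all genes and the 3 groups, CDS reads for Ribo-seq and all 3 regions for mRNA-seq. Footprints per tailed read and the ratio of 3′ UTR to CDS reads were interaction terms with a lysate or library block. DESeq2 1.42.0, other scalings, filters, blocks, depth thinning and leaving out replicates were alternatives. The main edgeR fits were run on simulated counts with a planted rise in ICM, scored for ICM against young only. The fits with no filter, with DESeq2 or with a replicate block were not tested in this way. Class sums have no test. Members and lists were chosen with earlier results of these data known. Named members are the 3 with the highest mean footprint level per class, the 2 largest called rises and falls per measure and comparison, and called members against the common direction; others, and most named genes of the lists, were chosen after their values were seen. Gene models and stem-loop sequence come from GENCODE and GRCh37, the build the notes name. The authors' annotation seems to differ from these models, at least for HIST1H2BK. Its 3′ UTR has 57 bases in GENCODE but took 51.4% of its mRNA-seq reads. The lysate block follows the study's methods, which make both assays from 1 lysate, whereas the labels describe total RNA from Trizol; same-lysate deviations correlated at only −0.080 to 0.14. In the filtered fits of Ribo-seq, mRNA-seq and footprints per tailed read the median of all genes was within 0.03 of 0. For the ratio of 3′ UTR to CDS reads it was −0.038 in ICM against young, 0.034 in old against young and −0.067 in ICM against old.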

Additional observations from a re-analysis of the deposited data

Results flagged for a closer look

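Differences between the ICM and the old libraries were tested directly with edgeR over all genes, and the named members below are not the only ones that passed. In tailed mRNA with no filter, 30 of 66 members were higher in ICM and 2 lower, against 24.3% and 26.5% of all genes. HIST1H1C differed in footprints by 1.06 on the log2 scale and in tailed mRNA by 2.20. HIST1H4H differed in tailed mRNA by 2.96 and in footprints per tailed read by −3.24. HIST3H2A differed in tailed mRNA by −0.69, and HIST1H4E and HIST1H1C in footprints per tailed read by −2.45 and −1.23. None of these 3 differences in footprints per tailed read passed without old replicate 1 or with DESeq2. Positive values are higher in ICM.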

How the results depend on the processing

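Stricter filters and thinning left fewer members to test. With a mean of at least 50 counts, footprint calls numbered 14 in ICM and 16 in old against young, of 16 tested. Tailed mRNA calls were 12 and 13, and 12 in ICM against old, of 13 tested, and ratio calls 4 and 4 of 4 tested. With Ribo-seq thinned to the shallowest library, 6 and 7 footprint calls were left of 7 tested. With no filter, tailed mRNA calls in ICM were 47 and ratio calls 49 against young and 6 against old, of 66 tested. Fitting only the 2 groups gave 16 ratio calls in ICM against young, of 16 tested. DESeq2 gave 11 ratio calls in old against young and 0 in ICM against old, of 26 tested, the cause of which was not tested. The replicate block in place of the lysate block gave 6 ratio calls in ICM against old, of 26 tested, as did no lysate block. The replicate block gave 38 and 43 footprint calls in ICM and old, of 48 tested. Shares over all genes are not given for these alternatives other than the fits with no filter.

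Leaving out each replicate gave 32 to 53 footprint calls in ICM against young (lowest without young replicate 2 or 3), 36 to 57 in old against young and 1 to 3 in ICM against old (3 without ICM replicate 3, and 3 without young 1, old 2 and ICM 3, a choice made after seeing the data). The filter was rerun each time, so the number of members tested moved as well, to 58 without ICM replicate 3 against 48 in the main fit. These ranges therefore mix the number tested with the calls. Tailed mRNA calls ranged over 31 to 35, 25 to 32 and 23 to 27. Ratio calls ranged over 19 to 31, 14 to 29 (15 of 20 tested without young replicate 3, 14 of 25 without old replicate 3) and 0 to 5 (0 of 25 without old replicate 1, 5 of 34 without ICM replicate 3). No call of a named member turned its direction in the alternatives run.

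Leaving out each replicate moved class sums of footprints in ICM against old (log2) over −0.11 to 0.61 for H2A, −0.71 to 0.79 for H2B, −1.12 to 0.67 for H3 and −0.79 to 0.053 for H4. The lowest values were without ICM replicate 3, and that of H4 above 0 without ICM replicate 1. A fit with class rows gave −0.082 for H2B and −0.22 for H3. With HIST2H3PS2 added, which held 1535 mRNA-seq reads and 18.7 footprints, the H3 sum of tailed mRNA differed by 1.14 in ICM and 0.079 in old, in place of 2.86 and 1.68.

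Deviations of same-numbered libraries correlated at 0.0045 to 0.056 in Ribo-seq and −0.055 to 0.10 in mRNA-seq. Ribo-seq and mRNA-seq libraries that share a lysate by the study's methods correlated as weakly, at −0.080 to 0.14. Low correlations therefore cannot decide whether replicate numbers pair libraries. With the replicate block, tailed mRNA calls were 31, 29 and 24, of 33 tested, and ratio calls 25 and 26 against young, of 26 tested.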
